A study of Homo sapiens with 9 samples.

Results

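The mevalonate to lanosterol enzymes are 9 genes that build the first sterol of cholesterol synthesis: HMGCS1, MVK, PMVK, MVD, IDI1, FDPS, FDFT1, SQLE and LSS. They were picked out by their gene symbols. These genes and the related lists below were chosen with earlier results of these data known. All 9 were among the 17492 genes of the authors' table, and all 9 passed the filter on low counts that kept 12832 genes. HCCLM3, the source of the RNA, is an established and highly metastatic line of human hepatocellular carcinoma, wild type by its label. The cells were given the vehicle DMSO (control), quercetin at 50 µM or quercetin at 100 µM, with 3 libraries per group. Quercetin is a plant flavonol, and the series asks how different concentrations of it act on hepatocellular carcinoma. How long the treatment lasted is not stated in the labels. All 9 libraries came from a single line, and nothing in the labels says that replicates were separate cultures. The p-values therefore measure only the spread between these libraries, which may be technical.

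The mevalonate pathway turns acetyl units into isoprenoids and sterols. Its early steps end in isopentenyl diphosphate, the building block of all isoprenoids, and farnesyl diphosphate is the branch point from which sterols, dolichol, ubiquinone side chains and protein prenyl groups are made. Squalene synthase commits the flow to sterols, squalene epoxidase adds oxygen, and lanosterol synthase closes the rings. In liver cells the genes of this route are targets of SREBP-2, a membrane-bound factor. The escort protein SCAP carries it to its site of cleavage when sterols are low, and INSIG proteins hold it back when sterols are plentiful. SREBP-2 is known to act on many sterol promoters together with NF-Y, which binds CCAAT boxes, and SP1, which binds GC boxes.

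Promoter stretches are shown for the 6 genes, of the 7 with a RefSeq promoter, that held a CCAAT box in any window. The promoter windows came from RefSeq (GRCh38.p14) and span 250 bases before to 50 bases after a start. Of the 9 genes, 7 matched, with 10 windows in all. Each line gives 29 bases, read 5′ to 3′ on the strand of the gene. They surround the CCAAT box nearest before the start that the window spans, with the box in capitals as CCAAT or its complement ATTGG. Where a gene had several starts, the window with the most CCAAT boxes is shown. This applies to HMGCS1, with 2 starts, and IDI1, with 3. The other HMGCS1 window and an IDI1 window not shown held no CCAAT box.
HMGCS1, chr5:43313496-43313524, minus strand: ctaccggccgcgATTGGctgtgggagcca
MVK, chr12:109573736-109573764, plus strand: tcgcgcgctctgATTGGctggcctgaagt
MVD, chr16:88663160-88663188, minus strand: ggctcgcacgggCCAATcctgtggtagcg
IDI1, chr10:1048957-1048985, minus strand: ctggcgcgagcgATTGGctgcgcggcccg
FDPS, chr1:155308803-155308831, plus strand: tcccgcgggcacATTGGgagttgtagtct
LSS, chr21:46228908-46228936, minus strand: cgcggcgctctgATTGGttgcgtgggcgt

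In the windows shown, the box nearest the start lay 46 bases before it in MVK and 150 bases before it in LSS. The boxes shown for the other genes lay between these. In the windows shown MVK held 5 CCAAT boxes before its start, MVD, IDI1 and FDPS 3 each, HMGCS1 2 and LSS 1. Motifs were searched as exact letters on both strands. CCAAT was found in 6 of the 7 genes with a promoter, all but PMVK, and in 39.7% of the 27305 genes of the RefSeq table. The SP1 box GGGCGG was found in 7 of 7 and in 48.3% of all genes. GCGTG, the core bound by the aryl hydrocarbon receptor, was found in 6 of 7, all but MVK, and in 40.6% of all genes. ACGTG, the core bound by hypoxia-inducible factors, was found in LSS alone among the 7 and in 24.9% of all genes. Neither the classical sterol regulatory element, searched as an exact match (0.0586% of all genes), nor the looser TCACNCCAC, which overlaps it (1.39%), was found in any of the 7. These are matches of letters in short windows and say nothing of binding.

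**Figure D1:**
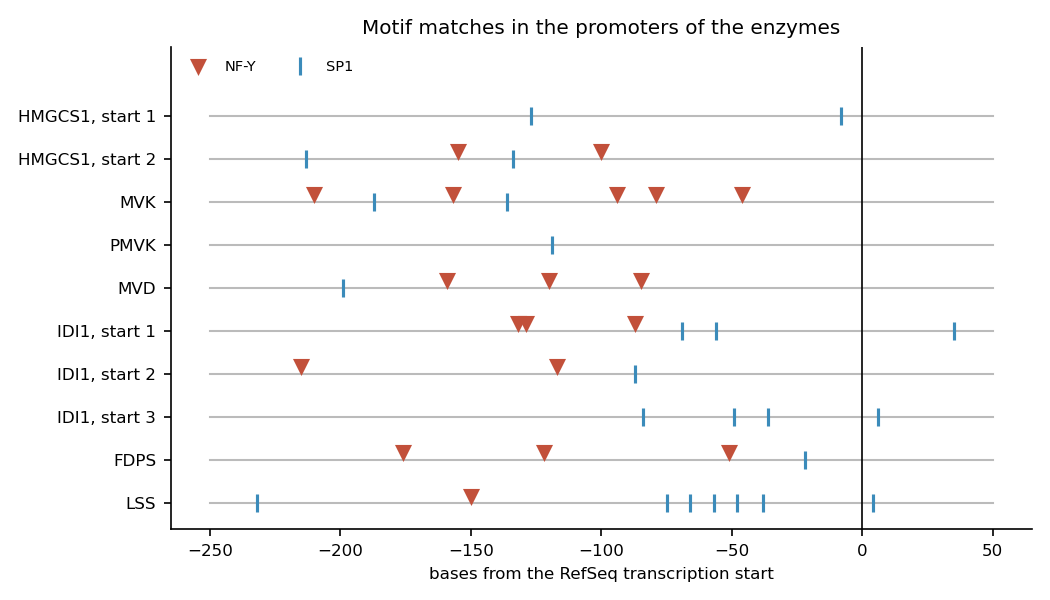
Positions of the CCAAT and GGGCGG boxes in the promoter windows of the 7 genes with a RefSeq promoter, as distance in bases from the start. Matches of the other searched motifs are not drawn. CCAAT boxes are marked in every gene except PMVK, and GGGCGG boxes in all 7.

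Library totals ran from 20061031 to 21599661 estimated counts. Levels are given as CPM, the depth-scaled count with TMM factors, when groups are compared, and as TPM, which also corrects for transcript length, when genes are compared. Control replicate 1 and 100 µM replicate 3 stood apart: the mean chi-square per gene to their group's other libraries was 28.2 and 28.1 for the former and 84.3 and 86.4 for the latter, while those other libraries differed by 3.63 and 5.08 and the 50 µM libraries by 4.29 to 4.81. Of the 9 enzymes, control replicate 1 was below both other controls for 6 and above both for 2. In 100 µM replicate 3, 7 were above both other libraries of the group, and LSS was below both. The line's epithelial and liver genes KRT8, KRT18, HNF4A and FOXA2 were present in every group, but 3 of 12 hepatocyte and hepatoma markers (TTR, APOA1 and SERPINA1) had a mean under 1 CPM in each group. Some secreted liver products differed between the groups, in both directions: ALB was at 1.24 ± 0.706 CPM in the controls, 8.83 ± 2.37 at 50 µM and 10.5 ± 5.04 at 100 µM, TF at 24.8 ± 13.3, 130.7 ± 4.79 and 168.8 ± 28.4, and APOB at 8.61 ± 0.597, 1.74 ± 0.0682 and 2.34 ± 0.453. AFP was at 5.04 ± 0.870, 6.03 ± 0.780 and 5.25 ± 0.965 CPM, with little difference. HNF4A was at 39.9 ± 6.61, 23.7 ± 2.19 and 33.2 ± 7.88 CPM. Summed leukocyte markers ran from 139 to 199.6 CPM in the controls, 128.2 to 144.5 at 50 µM and 216.9 to 297.2 at 100 µM. Nearly all of that sum was CD68, and the other 5 leukocyte markers had means under 1 CPM in each group. Fibroblast markers summed to 72.8 to 114.7, 84.2 to 97.6 and 86.3 to 154.7 CPM, from LUM and DCN, with the other 4 under 1 CPM. Endothelial markers summed to 37.0 to 40.7, 20.2 to 22.8 and 22.2 to 26.9 CPM, from PECAM1 and KDR, with the other 3 under 1 CPM. The part of these marker differences in the results was not tested.

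At either dose of quercetin the messenger RNA of 6 of the 9 enzymes was higher than in the controls, by 1.32-fold to 1.98-fold at 50 µM and 1.26-fold to 1.95-fold at 100 µM. At 50 µM, 6 of the 9 enzymes rose and none fell, against 5.28% of all tested genes that rose and 6.31% that fell. LSS, FDFT1, FDPS, IDI1, MVD and MVK were the 6. At 100 µM the same 6 genes rose and PMVK fell, against 10.7% of all tested genes that rose and 10.3% that fell (21% in either direction, and 11.6% at 50 µM). Both comparisons use the same controls. Because the 9 were chosen with earlier results of these data known, the shares of all genes beside them are a description. A gene rose or fell where the p of edgeR's quasi-likelihood test, adjusted by Benjamini-Hochberg over all genes tested, was under 0.05. The median log2 fold change of the 9 was 0.66 at 50 µM and 0.72 at 100 µM, where the median of all tested genes was 0.0033 and 0.00087. With both libraries that stood apart left out, a setting in which far more of all tested genes are called, 8 of 9 rose at 50 µM, against 28.5% of all genes higher and 28.9% lower. At 100 µM 6 rose and PMVK fell, against 24.2% higher and 24.4% lower. In bulk RNA a changed share of cells and a changed amount of RNA per cell cannot be told apart.

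**Figure D2:**
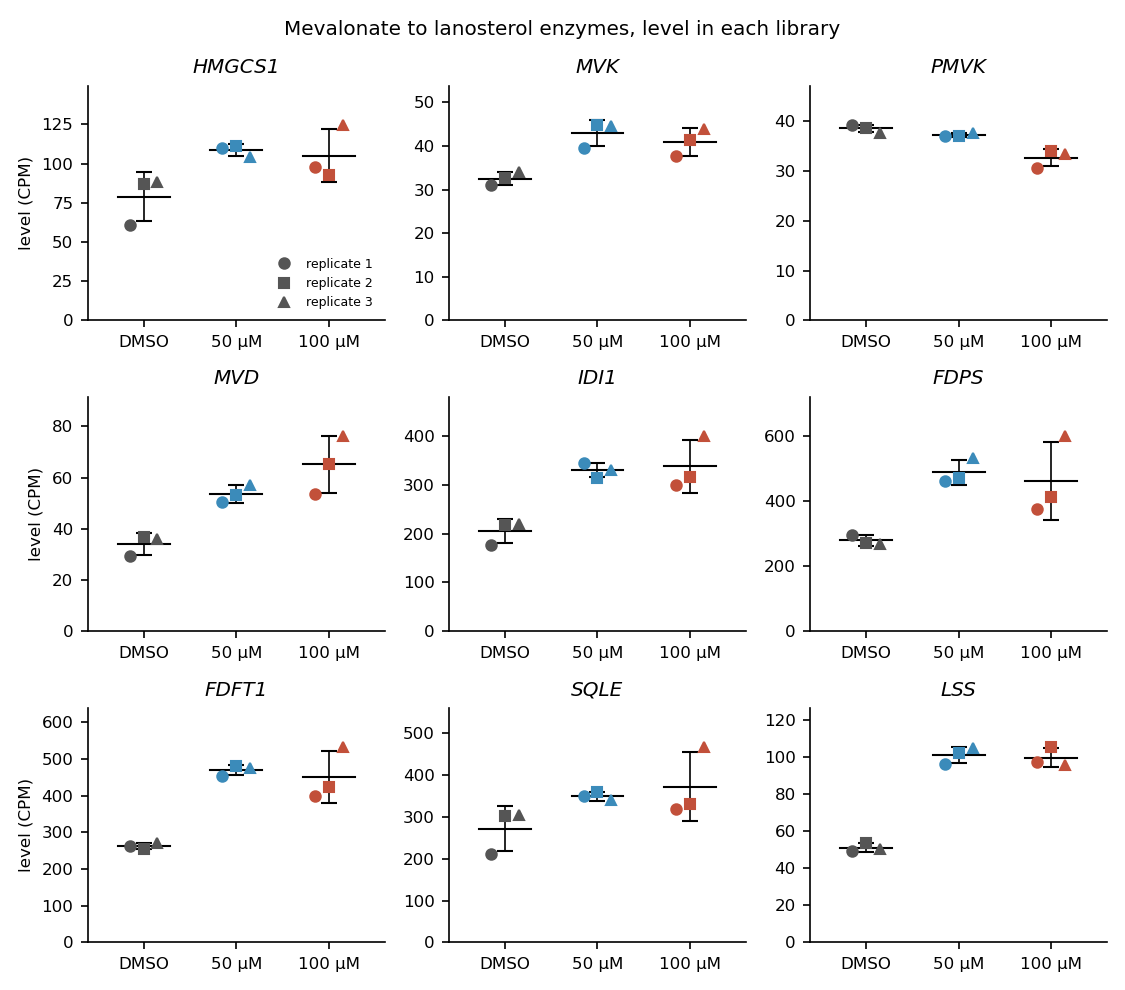
Level of each enzyme in each of the 9 libraries, in CPM scaled by TMM, with the group mean as a line and the SD as error bars. For LSS the controls lie between 49.0 and 53.5 CPM and all 6 quercetin libraries between 95.7 and 105.2.

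The route begins with HMGCS1 (gene 3157, GRCh38 chromosome 5, 43287321 to 43313477), which joins acetyl-CoA and acetoacetyl-CoA into HMG-CoA in the cytosol. It stood at 61.1, 87.3 and 88.6 CPM in the controls, 110.2, 111.2 and 104.3 at 50 µM, and 98.0, 92.7 and 124.6 at 100 µM. All 6 quercetin libraries lay above all 3 controls, and the lowest control was replicate 1. The log2 fold change of HMGCS1 was 0.46 ± 0.153 (SE) at 50 µM (adjusted p = 0.0769) and 0.41 ± 0.153 at 100 µM (adjusted p = 0.0838), neither past the test. With both libraries that stood apart left out, it was 0.30 at 50 µM (adjusted p = 7.85e-05) and 0.13 at 100 µM, so that the first passed and the second did not. Over all 18 alternatives the adjusted p of HMGCS1 at 50 µM ran from 7.85e-05 to 0.187, and it was past the threshold in 4.

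MVK (gene 4598, chromosome 12, 109573341 to 109598402) puts the first phosphate on mevalonate. Its level was 31.0, 32.6 and 33.9 CPM in the controls, 39.5, 44.8 and 44.7 at 50 µM, and 37.6, 41.4 and 44.0 at 100 µM. No quercetin library reached down to the controls. MVK rose 1.32-fold at 50 µM (95% CI 1.15 to 1.52, adjusted p = 0.0245) and 1.26-fold at 100 µM (95% CI 1.10 to 1.45, adjusted p = 0.0291). MVK shares its locus with MMAB, a gene of cobalamin metabolism that overlaps it in RefSeq. Whether the counting used strand is not stated in the labels, so reads of the pair may not be told apart. MMAB, chosen for its position, had a log2 fold change of 0.70 ± 0.217 at 50 µM (adjusted p = 0.0620) and 0.62 ± 0.217 at 100 µM (adjusted p = 0.0703), not past the test. It was past the threshold in 5 of 18 alternatives at 50 µM and in 4 of 18 at 100 µM.

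PMVK (gene 10654, chromosome 1, 154924740 to 154942658) adds the next phosphate, and it was the exception among the 9. It stood at 39.2, 38.7 and 37.7 CPM in the controls, 37.0, 37.0 and 37.6 at 50 µM, and 30.6, 33.9 and 33.4 at 100 µM. All 50 µM libraries were below all controls by a small margin, and all 100 µM libraries were below both other groups. At 50 µM its log2 fold change was -0.05 ± 0.0738 (adjusted p = 0.654). At 100 µM it fell by 0.24 on the log2 scale (SE 0.0740, adjusted p = 0.0470). PMVK was past the threshold in 5 of 18 alternatives, with adjusted p from 0.0153 to 0.154 and a log2 fold change between -0.31 and -0.19. It was lost without any 1 of the controls, without any 1 of the 50 µM libraries, and without 100 µM replicate 1 or 2.

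MVD (gene 4597, chromosome 16, 88651935 to 88663161) removes a carboxyl group from the doubly phosphorylated mevalonate and yields isopentenyl diphosphate. Its level was 29.3, 36.9 and 36.1 CPM in the controls, 50.4, 53.4 and 57.1 at 50 µM, and 53.8, 65.4 and 76.2 at 100 µM. The lowest quercetin library stood well above the highest control, and the 100 µM libraries were spread more widely than those at 50 µM. MVD rose 1.57-fold at 50 µM (95% CI 1.27 to 1.95, adjusted p = 0.0195) and 1.91-fold at 100 µM (95% CI 1.55 to 2.37, adjusted p = 0.00241). IDI1 (gene 3422, chromosome 10, 1039152 to 1056720) converts isopentenyl diphosphate into its isomer dimethylallyl diphosphate. It stood at 175.9, 217.0 and 220.3 CPM in the controls, 344.4, 314.4 and 329.7 at 50 µM, and 298.9, 314.7 and 399.1 at 100 µM, with control replicate 1 the lowest and 100 µM replicate 3 the highest library. IDI1 rose 1.61-fold at 50 µM (95% CI 1.32 to 1.96, adjusted p = 0.0151) and 1.65-fold at 100 µM (95% CI 1.36 to 2.01, adjusted p = 0.00507). RefSeq lists 3 pseudogenes of IDI1, and WDR37 overlaps it, so its counts are uncertain to the extent that reads were shared.

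FDPS (gene 2224, chromosome 1, 155308801 to 155320665) makes farnesyl diphosphate and is the target of nitrogen-containing bisphosphonates. It stood at 297.4, 273.3 and 267.7 CPM in the controls, 461.9, 473.1 and 533.4 at 50 µM, and 375.5, 413.7 and 600.5 at 100 µM. Every quercetin library exceeded every control, and 100 µM replicate 3 was 52.2% above the mean of the other libraries of its group. FDPS rose 1.75-fold at 50 µM (95% CI 1.37 to 2.24, adjusted p = 0.0175) and 1.66-fold at 100 µM (95% CI 1.30 to 2.12, adjusted p = 0.0125). The call at 100 µM was lost without control replicate 2 or 3. RefSeq lists 10 FDPS pseudogenes, none of them in the authors' table, and reads that fit both could have been counted to FDPS or lost.

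FDFT1 (gene 2222) is squalene synthase, which joins a pair of farnesyl diphosphates and commits them to sterols. Its level was 261.9, 255.8 and 271.0 CPM in the controls, 453.4, 480.2 and 476.6 at 50 µM, and 398.3, 424.4 and 532.6 at 100 µM. The controls were close together and far below every quercetin library. FDFT1 rose 1.79-fold at 50 µM (95% CI 1.51 to 2.11, adjusted p = 0.00461) and 1.72-fold at 100 µM (95% CI 1.46 to 2.03, adjusted p = 0.0018). SQLE (gene 6713, chromosome 8, 124998505 to 125022283) is squalene epoxidase, the target of the antifungal terbinafine in fungi. It stood at 210.3, 301.0 and 305.2 CPM in the controls, 348.9, 360.5 and 339.3 at 50 µM, and 319.1, 329.8 and 466.8 at 100 µM. The groups did not overlap with the controls, but control replicate 1 was 30.6% below the mean of the other controls and 100 µM replicate 3 was 43.9% above the mean of its group's other libraries. The log2 fold change of SQLE was 0.36 ± 0.172 at 50 µM (adjusted p = 0.179) and 0.45 ± 0.172 at 100 µM (adjusted p = 0.0914), neither past the test. With both libraries left out it was 0.21 at 50 µM (adjusted p = 0.0018) and 0.11 at 100 µM. Over the 18 alternatives its adjusted p at 50 µM ran from 0.0018 to 0.337, past the threshold in 2.

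LSS (gene 4047) is lanosterol synthase, which folds squalene epoxide into the sterol rings, and it had the largest rise of the 9 at 50 µM, with all libraries and in all 18 alternatives. At 100 µM its log2 fold change of 0.96 was close to that of MVD, 0.94 ± 0.137 (SE), and MVD was the higher in 3 of 18 alternatives, without control replicate 3 or without 100 µM replicate 1 or 2. It stood at 49.0, 53.5 and 50.4 CPM in the controls, 96.2, 102.0 and 104.6 at 50 µM, and 97.3, 105.2 and 95.7 at 100 µM. The groups were tight, and both libraries that stood apart were the lowest of their groups by a small margin. LSS rose 1.98-fold at 50 µM (95% CI 1.76 to 2.23, adjusted p = 0.000824) and 1.95-fold at 100 µM (95% CI 1.73 to 2.19, adjusted p = 0.000144). At 50 µM, 271 of the 12832 tested genes had a larger rise than LSS, and 637 did at 100 µM. LSS and FDFT1 were past the threshold in all 18 alternatives at both doses, and MVD and IDI1 in all 18 at 100 µM. At 50 µM, MVK, MVD, IDI1 and FDPS were past it in 13 of 18: without control replicate 2 or 3, or without any 1 of the 50 µM libraries, LSS and FDFT1 alone remained, which is 2 of 9 in place of 6. At 100 µM MVK was past it in 11 of 18, and was lost without any 1 of the controls, 50 µM replicate 2 or 3, or 100 µM replicate 2.

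**Figure D3:**
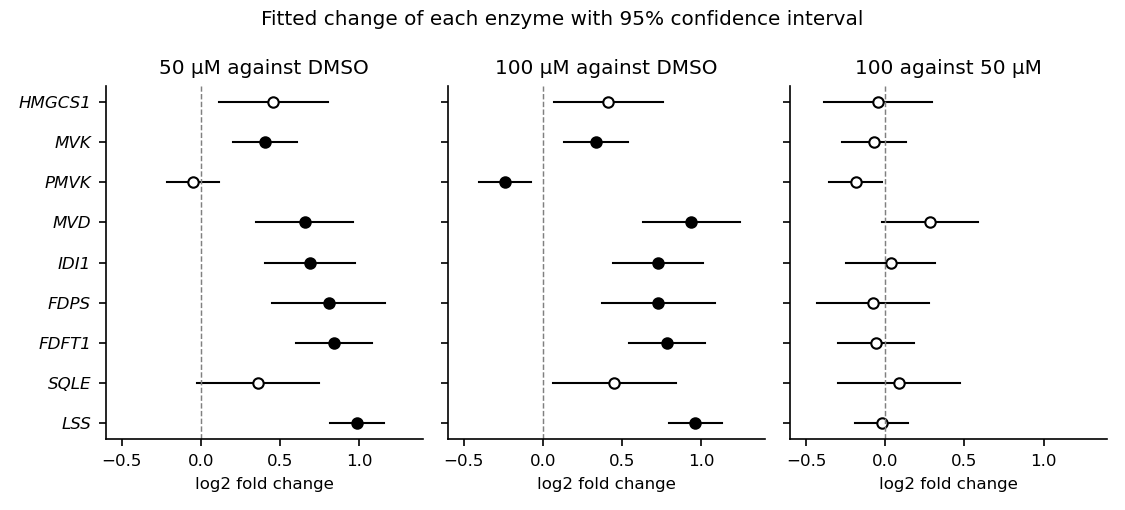
Log2 fold change of each enzyme at 50 and 100 µM against control and between the doses, with 95% confidence intervals from edgeR, in the order of the pathway; filled points passed the test. The fold changes run from -0.05 for PMVK to 0.98 for LSS at 50 µM and from -0.24 to 0.96 at 100 µM.

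Groups that do not overlap were more frequent than calls. Every one of the 9 enzymes had no overlap with the controls at 50 µM, 8 above and PMVK below, where 24.4% of all tested genes lay above and 24.6% below without overlap. At 100 µM it was again 9 of 9, where 17.3% lay above and 18.6% below (35.9% in either direction, and 49% at 50 µM). HMGCS1 and SQLE are thus separated from the controls in every library while missing the threshold. In the authors' deposited table HMGCS1 and SQLE have q values of 0.00461 and 0.027 at 50 µM, and of 0.184 and 0.175 at 100 µM. The authors' deposited table gives PMVK a q of 0.814 at 50 µM and 0.178 at 100 µM, and MVK 0.000916 and 0.0564.

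Between the doses no enzyme passed the test, where 4.15% of all tested genes did, 2.25% higher and 1.89% lower. The log2 fold change of 100 against 50 µM ran from -0.19 for PMVK to 0.28 for MVD, with a median of -0.05. PMVK was the only member with an unadjusted p under 0.05 (0.0305) and the only one whose 2 dose groups did not overlap, where 27.7% of all tested genes did not. DESeq2 and limma also called 0 of 9. The 95% interval of the difference was -0.19 to 0.14 for LSS, -0.30 to 0.18 for FDFT1, -0.43 to 0.27 for FDPS and -0.02 to 0.58 for MVD, so that a modest difference in either direction is within the precision. Without 100 µM replicate 3, FDPS and FDFT1 were lower at 100 than at 50 µM, where 1738 of 12937 tested genes were lower and 1823 higher. With both libraries that stood apart left out, PMVK, FDFT1, FDPS and HMGCS1 were lower. These were 4 of 9, where 22.7% of all genes were lower and 24.6% higher in that setting. FDPS was then at -0.30 (95% CI -0.43 to -0.18 on the log2 scale). MVD was the member with the largest rise from 50 to 100 µM in all 9 libraries, at 0.28, and at 0.16 without those 2 libraries.

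Compared per length, in TPM, the enzymes spanned a wide range. In the controls FDPS was highest at 481.2 ± 34.4 TPM, followed by FDFT1 at 282.1 ± 5.83, IDI1 at 214.5 ± 20.7 and SQLE at 200.4 ± 35.5, where the last 2 overlapped. PMVK stood at 86.2 ± 3.28, and MVD (40.6 ± 4.60), HMGCS1 (39.6 ± 7.34) and MVK (34.2 ± 1.63) formed a run of neighbours that overlapped. LSS was lowest at 22.5 ± 0.913 TPM. At 50 µM the order was the same, with FDPS at 809.0 ± 51.5 and LSS at 43.2 ± 1.91, which then overlapped with MVK at 44.0 ± 3.04. At 100 µM the mean of MVD, 74.0 ± 8.92, was above that of PMVK, 69.8 ± 3.41, with overlapping libraries.

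**Figure D4:**
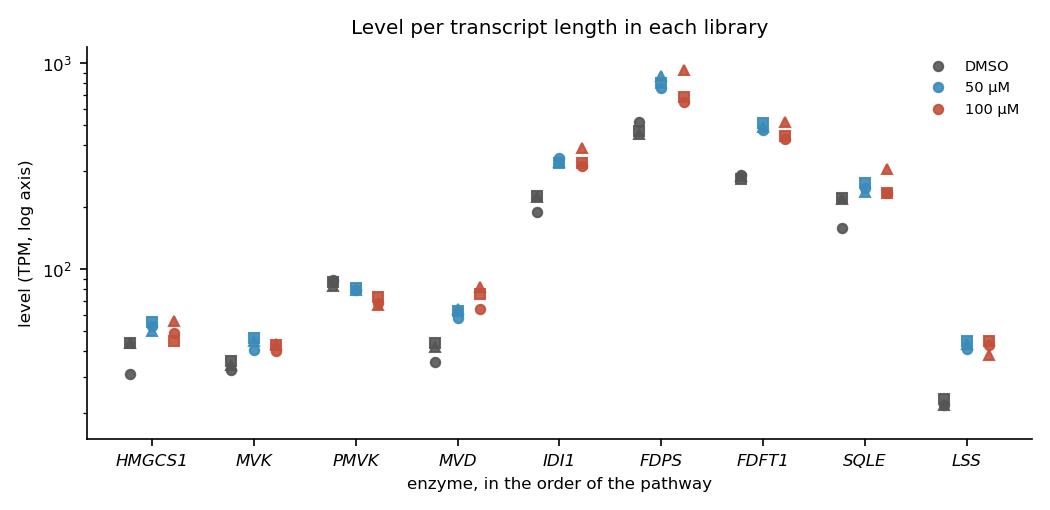
TPM of the 9 enzymes by group on a log axis, each point a library. FDPS is highest and LSS lowest in the controls, and LSS reaches the level of MVK at both doses.

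Summed over the 9 enzymes, TPM was 1401.1 ± 32.7 in the controls, 2168.3 ± 55.3 at 50 µM and 2102.5 ± 289.2 at 100 µM. The lowest quercetin library, at 1894.6, was above the highest control, at 1430.0. The make-up of that sum moved too for some members. PMVK made up 5.87% to 6.53% of it in the controls, 3.59% to 3.77% at 50 µM and 2.76% to 3.72% at 100 µM. The sum itself was higher with quercetin, while the level of PMVK was 86.2 ± 3.28, 80.1 ± 1.29 and 69.8 ± 3.41 TPM. FDFT1 made up 19.3% to 20.9%, 22.2% to 23.3% and 21.3% to 22.6%. SQLE made up 11.7% to 15.7%, 10.8% to 11.96% and 11.9% to 12.7%, ranges that overlapped.

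The enzymes followed each other across the libraries apart from PMVK. Pearson's r between the log2 CPM of a gene and the mean of the other members, over 9 libraries, ran from 0.85 for SQLE to 0.97 for IDI1, and was -0.53 for PMVK. These values describe the libraries and share the group differences and the libraries that stood apart. Of 10461 genes with at least 5 CPM on average, 68 (0.65%) had an r over 0.9 with the mean profile of the members. The 5 most like it were CRYAB (0.963), AKR1A1 (0.960), HTRA1 (0.959), HSD17B7 (0.958) and RARRES2 (0.954). CRYAB encodes a small heat shock protein and HTRA1 a secreted protease. These genes were chosen for following the members, which differ between the controls and quercetin. The levels of CRYAB, AKR1A1, HTRA1 and RARRES2 are therefore given as a description with no test. HSD17B7 is tested below as an enzyme of the later steps, and that test is not independent of its likeness to the members. CRYAB stood at 2.37 ± 0.284 CPM in the controls, 10.7 ± 1.26 at 50 µM and 11.1 ± 4.55 at 100 µM, and RARRES2, which encodes chemerin, at 4.45 ± 0.476, 8.56 ± 2.02 and 8.41 ± 3.09. Both reached the mean of 5 CPM through the quercetin libraries, where they were higher. HTRA1 stood at 28.6 ± 1.36, 53.2 ± 1.55 and 48.0 ± 4.96 CPM, and AKR1A1, an aldehyde reductase, at 50.1 ± 1.65, 62.7 ± 1.78 and 60.7 ± 7.49.

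Of the later steps, from lanosterol to cholesterol, 10 enzymes were tested. Of these, 1 rose and none fell at 50 µM, and 2 rose and none fell at 100 µM, near the shares of all tested genes that rose (5.28% and 10.7%), with medians of 0.23 and 0.24 on the log2 scale. With both libraries that stood apart left out, 5 rose and 2 fell at 50 µM (28.5% and 28.9% of all genes) and 4 rose and 2 fell at 100 µM (24.2% and 24.4%). DHCR7, which makes the last double-bond reduction of one branch, rose from 164.1 ± 14.0 CPM to 256.2 ± 10.3 at 50 µM (adjusted p = 0.00543) and 272.3 ± 17.0 at 100 µM (adjusted p = 0.000974). HSD17B7, which acts on the sterol 3-keto group, rose 1.41-fold at 100 µM (adjusted p = 0.0370) and was 1.37-fold higher at 50 µM without passing (adjusted p = 0.0641). Its call at 100 µM was lost without control replicate 1 or 2, without any 1 of the 50 µM libraries, and without 100 µM replicate 2.

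Of the genes that supply acetyl-CoA or handle HMG-CoA, 6 of 7 were tested. At 50 µM 1 rose and none fell (5.28% and 6.31% of all tested genes), and at 100 µM 3 rose and 1 fell (10.7% and 10.3%). Without both libraries it was 3 and none at 50 µM (28.5% and 28.9% of all genes), and 3 and 2 at 100 µM (24.2% and 24.4%). SLC25A1, the mitochondrial citrate carrier, rose from 89.6 ± 3.41 CPM to 127.1 ± 9.02 at 50 µM (adjusted p = 0.0118) and 132.8 ± 10.6 at 100 µM (adjusted p = 0.00275). At 100 µM ACSS2, which makes acetyl-CoA from acetate, rose 2.01-fold (adjusted p = 0.0140). The mean of ACSS2 rests partly on 100 µM replicate 3, at 161.4 CPM where the other 2 libraries held 79.3 and 91.6. The call of ACSS2 was lost without control replicate 2 or 3. ACAT1, the mitochondrial thiolase, fell from 128.1 ± 6.26 CPM in the controls to 101.4 ± 11.6 at 100 µM (adjusted p = 0.0289) and was lower at 100 than at 50 µM (adjusted p = 0.0308). Both calls of ACAT1 were lost without control replicate 2 or 3, any single 50 µM library, or 100 µM replicate 1 or 2.

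Of genes in branches that use isoprenoids for other ends, 14 of 15 were tested. Of these none passed at 50 µM, where 4 were above and 10 below 0 (5.28% of all tested genes rose and 6.31% fell). At 100 µM none rose and 3 fell (10.7% and 10.3% of all tested genes). Without both libraries 4 rose and 5 fell at 50 µM, near the 28.5% and 28.9% of all genes, and 1 rose and 7 fell at 100 µM, where 24.2% and 24.4% did. PDSS1, which makes the ubiquinone side chain, stood at 15.1, 15.8 and 17.6 CPM in the controls and at 9.80, 10.4 and 6.97 at 100 µM. It fell by 0.83 on the log2 scale (SE 0.148, adjusted p = 0.0052), with 100 µM replicate 3 the lowest library. NUS1, a subunit of the dolichol enzyme, fell by 0.26 (adjusted p = 0.0372). The call of NUS1 held in 7 of 18 alternatives, and was lost without any 1 of the controls, without any 1 of the 50 µM libraries, and without 100 µM replicate 1 or 2. Between the doses PDSS1 was the only gene of the list past the test, lower at 100 µM by a log2 fold change of -0.66 (adjusted p = 0.0411), and this was lost without control replicate 2 or 3, any single 50 µM library, or 100 µM replicate 1 or 2.

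Of 14 SREBP factors, sensors and uptake genes, 3 rose and none fell at 50 µM (5.28% and 6.31% of all tested genes). At 100 µM 8 rose and none fell (10.7% and 10.3%), and the medians were 0.25 and 0.48. Without both libraries 7 rose and 3 fell (28.5% and 28.9% of all genes), and 10 rose and 2 fell (24.2% and 24.4%). SREBF2, which encodes SREBP-2, rose from 84.6 ± 4.46 CPM to 113.2 ± 7.80 at 50 µM (adjusted p = 0.0180) and 121.8 ± 7.83 at 100 µM (adjusted p = 0.00336). SREBF1, which encodes SREBP-1, stood at 72.3, 42.5 and 38.3 CPM in the controls, 108.4, 124.6 and 122.7 at 50 µM, and 115.9, 125.5 and 106.5 at 100 µM. It rose 2.32-fold (adjusted p = 0.0118) and 2.27-fold (adjusted p = 0.00505), although control replicate 1 was the highest of its group. The escort SCAP was at 52.6 ± 0.576, 44.6 ± 2.07 and 44.1 ± 7.12 CPM and did not pass (adjusted p = 0.173 and 0.132). INSIG1 was at 105.8 ± 11.6, 164.1 ± 7.31 and 182.4 ± 65.8 CPM, not past at 50 µM (adjusted p = 0.0713) and risen at 100 µM (adjusted p = 0.0264), a call lost without any 1 of the controls. INSIG2 rose 2.5-fold at 100 µM (adjusted p = 0.00288) and also between the doses (adjusted p = 0.0390). The mean of INSIG2 at 100 µM rests partly on replicate 3, with libraries at 74.33, 75.45 and 133.9 CPM. Against control its log2 fold change at 100 µM ran from 0.996 to 1.47 over 18 alternatives, past the threshold in all. MYLIP, a ubiquitin ligase and LXR target, rose 1.84-fold at 100 µM (adjusted p = 0.0190), a call lost without control replicate 2 or 3. At 50 µM the calls of SREBF1, SREBF2, SLC25A1 and LPCAT3 were also lost without control replicate 2 or 3 and without 50 µM replicate 2 or 3, and those of SREBF2 and LPCAT3 without 50 µM replicate 1 as well. Between the doses the call of INSIG2 was lost without control replicate 2 or 3 or any single 50 µM library.

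Of 4 tested LXR receptors and targets of sterol efflux, 1 rose at 50 µM and 3 at 100 µM, and none fell. Of all tested genes, 5.28% rose and 6.31% fell at 50 µM, and 10.7% and 10.3% at 100 µM. Without both libraries 2 rose at 50 µM (28.5% of all genes), and 3 rose and 1 fell at 100 µM (24.2% and 24.4%). LPCAT3, a phospholipid acyltransferase, rose 1.58-fold (adjusted p = 0.0161) and 1.86-fold (adjusted p = 0.00193). The efflux pump ABCA1 was at 6.34 ± 1.83 CPM in the controls, 9.66 ± 1.81 at 50 µM (adjusted p = 0.143) and 20.0 ± 5.75 at 100 µM (adjusted p = 0.00306). Its rise between the doses (adjusted p = 0.0488) was lost when control replicate 2 or 3, any single 50 µM library, or 100 µM replicate 1 or 2 was left out. NR1H2, which encodes an LXR, rose 1.18-fold at 100 µM (adjusted p = 0.0355), a call kept in 7 of 18 alternatives and lost without control replicate 2 or 3, any single 50 µM library, or 100 µM replicate 2. Of 9 genes of fatty acid synthesis, 6 rose at 50 µM (5.28% of all tested genes) and 5 at 100 µM (10.7%), and none fell. Without both libraries 9 rose at 50 µM (28.5% of all genes), and 7 rose and 1 fell at 100 µM (24.2% and 24.4%). SCD, which desaturates fatty acids, rose 2.44-fold (adjusted p = 0.0039) and 3.05-fold (adjusted p = 0.000437), FADS2 2.42-fold (adjusted p = 0.000824) and 2.52-fold (adjusted p = 9.07e-05), and FASN 2.00-fold (adjusted p = 0.00743) and 2.04-fold (adjusted p = 0.00232). Without 50 µM replicate 3 or control replicate 3, the call of FASN at 50 µM was lost.

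**Figure D5:**
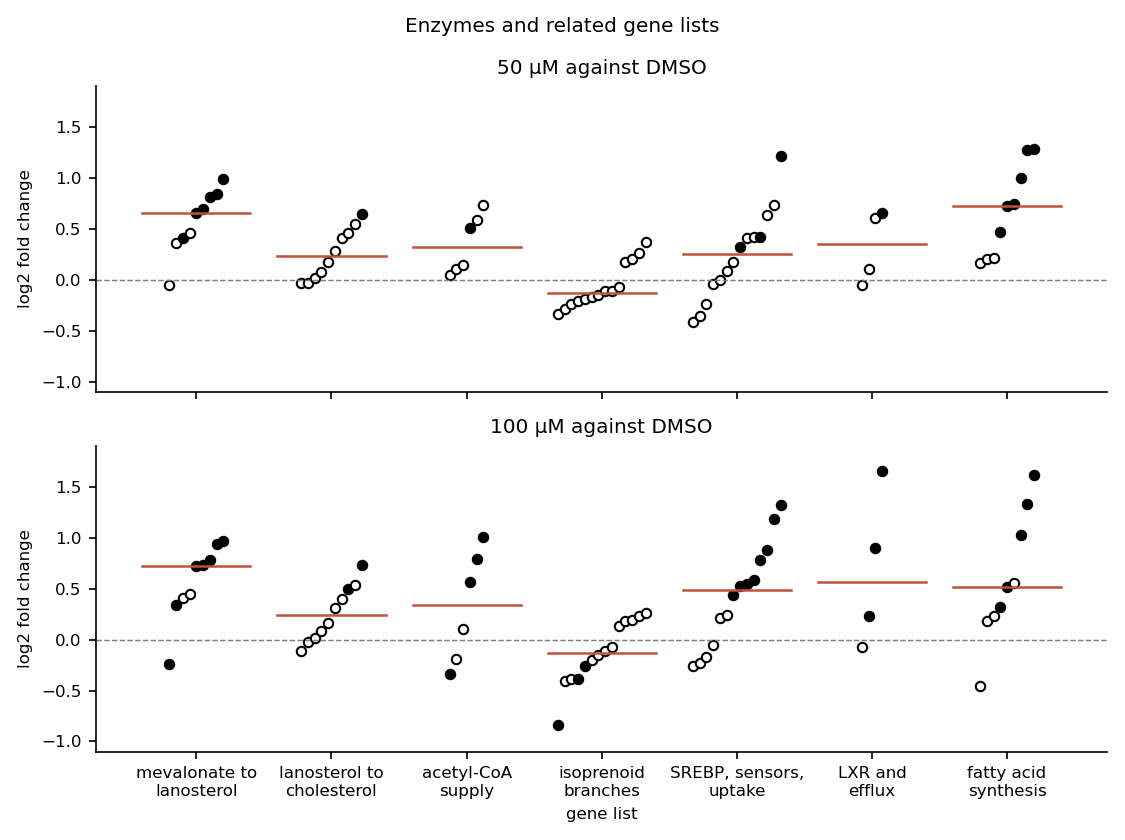
Log2 fold change of every tested gene of the 7 lists at 50 and 100 µM against control, each point a gene (filled where it passed the test) and each line the median of its list. The medians of the 9 enzymes, 0.66 and 0.72, and those of the later cholesterol enzymes, 0.23 and 0.24, are marked; the difference between lists was not tested.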

How the data were processed

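RNA-seq of 9 HCCLM3 libraries, 3 per group, was used. Per the labels' protocols, poly(A) RNA was selected on oligo(dT) beads. Libraries went through PCR and a duplex-specific nuclease step that can compress differences between abundant and rare transcripts. The authors deposited expected counts (estimated counts) per gene and library, without normalisation, and TPM per library, which the authors scaled by length and depth. The authors also deposited log2 fold changes, and per the file headers q-values of DESeq2. The submitters' processing notes name RSEM 1.2.12, HISAT2 2.0.4 and Bowtie2 2.2.5, and the build GRCh38.p13; their roles are not given in the sources used here. Another 18 columns of per-library values (FPKM and normalised counts) were not used. Of the counts, 26.84% were whole within 1e-06.

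Counts were rounded. filterByExpr (edgeR 4.0.16; minimum count 10, minimum total 15, share 0.7) kept 12832 genes and removed 4660. After TMM scaling the 9 libraries entered 1 quasi-likelihood fit (robust, two-sided; limma 3.58.1, R 4.3.3). Adjustment was Benjamini-Hochberg over all genes tested, with a threshold of 0.05. A common dispersion of 0.0206 was fitted, and standard errors at 50 µM had a median of 0.134 on the log2 scale. The script was tested on simulated data. Motifs were searched in RefSeq promoter windows of 300 bases.

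The members and lists were chosen with earlier results of these data known. All 9 members are named, and from each other list up to 3 genes per comparison that passed the threshold with at least 5 CPM, by size of change, the 5 genes most like the members, and SREBF1, SREBF2, SCAP, INSIG1 and INSIG2. Results of some genes that this rule names are not reported here. Alternatives were RLE, DESeq2 1.42.0, other count filters, fits of 2 groups, a replicate block, leaving out libraries, and limma on log2 of TPM plus 1 or 0.1. Genes on sequences other than chromosomes have no position here.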

Additional observations from a re-analysis of the deposited data

How the results depend on the processing

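For the 9 enzymes, 429 of 486 single values under 18 alternatives kept their side of the threshold, 43 lost the threshold and 14 gained it. Against control none changed sign. Between the doses 11 of 162 changed sign, all of values between -0.08 and 0.09 with all libraries, in HMGCS1, IDI1, FDPS, FDFT1, SQLE and LSS. Leaving out 1 library gave 2 to 8 enzymes past the threshold at 50 µM (6 with all libraries), 4 to 7 at 100 µM (7) and 0 to 2 between the doses (0). In fits of 2 groups alone 4 enzymes passed at 100 µM, and with both libraries that stood apart left out 4 passed between the doses. INSIG1 turned between the doses in that setting, to -0.18 (adjusted p = 0.0122), where 22.7% of all genes were lower. CRYAB turned to -0.33, given as a description with no test because it was chosen for following the members.

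Counts over all genes moved more. At 50 µM, 678 genes were higher and 810 lower. DESeq2 gave 1208 and 1359, 2 groups alone 1996 and 2273, both libraries left out 3677 and 3721, and leaving out 1 library 47 to 2382 and 43 to 2357. limma on log2 of TPM plus 1 or 0.1 gave 438 and 448 higher. At 100 µM, 1370 were higher and 1322 lower. 2 groups alone gave 587 and 437, both libraries left out 3125 and 3147, and leaving out 1 library 598 to 1966 and 457 to 1890. Between the doses, 289 were higher and 243 lower. DESeq2 gave 709 and 673, 2 groups alone 180 and 71, both libraries left out 3176 and 2929, and leaving out 1 library 31 to 1823 and 12 to 1738. Leaving out any single library moved at least 1 of these counts by over 1.5 times; without control replicate 1 the counts at 50 µM were 1405 and 1437, and without 100 µM replicate 1 or 2 those between the doses were 127 and 50, or 120 and 46. The cause was not tested. Same-numbered deviations from the group means correlated at -0.10, -0.04 and -0.03 between control and 50 µM. The values were -0.46, 0.28 and -0.36 between control and 100 µM, and 0.08, -0.05 and 0.03 between the doses. Control replicate 1 and 100 µM replicate 3, which stood apart, correlated at 0.53. Deviations from a mean of 3 libraries are tied to each other, so these values cannot tell whether the numbers pair the libraries. With the replicate block 199 genes were higher and 228 lower at 50 µM, 893 and 779 at 100 µM, and 81 and 28 between the doses, and 6, 6 and 0 enzymes passed. Where 1 group has 2 libraries, the fit assumes the spread of all groups. With a median standard error of 0.134, small changes of rare transcripts could not be detected.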
